A study of Capra hircus with 4 samples.

Results

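The transcripts described here are those of 3 goat genes of the antibody system, LOC102185492, LOC102176353 and IGJ, in RNA-seq of goat longissimus muscle. The members were all unigenes, which are sequences assembled from the reads without a genome, that the deposited protein comparison pairs with 1 of these 3 gene names. They number 9 of 59774 unigenes, with 4 unigenes for LOC102185492, 3 for LOC102176353 and 2 for IGJ. LOC102185492 was chosen as a target gene in the study from the fold changes in these same libraries, so its difference between treated and control libraries is given as a description and without a test. The sites of the study's qRT-PCR primers for LOC102185492 lie in c5630_g1, a unigene that the deposited table pairs with LOC102176353. The reverse primer differs from c5630_g1 at 1 base.

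Muscle was taken from cashmere goats aged 2 months. The control library came from goats of the control group, and the 3 treated libraries came from goats given ractopamine, a β-agonist feed additive, by mouth at 1 mg/kg body weight in a trial with 28 dosing days and 21 withdrawal days. In the labels the treated libraries are replicates 1, 2 and 3, with no sampling day. The study sequenced 3 time points, 1 during dosing and 2 during withdrawal, so the treated libraries are not replicates of 1 time point. No day was assigned to a library and the treated libraries were not averaged. The treated libraries are called T1, T2 and T3 after these numbers. A series of 4 values below follows the order control, T1, T2, T3, and a series of 3 values the order T1, T2, T3. Whether a library holds 1 animal or a pool is not stated.

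Antibodies are built from 2 kinds of chain, heavy and light, and each chain has a variable region that binds antigen and a constant region. The heavy chain sets the class (gamma for IgG, mu for IgM, alpha for IgA), and the light chain is lambda or kappa, with lambda prevailing in ruminants. The joining chain, encoded by IGJ, links the units of polymeric IgM and IgA. All are made by B cells and in the largest amounts by plasma cells, and a skeletal muscle fibre does not make them. Fewer cells of a type and less RNA per cell cannot be told apart in bulk tissue.

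The identity of the members went partly against the label of light chain and joining chain. The deposited names of the paired proteins are immunoglobulin lambda-like polypeptide 5-like for LOC102185492, immunoglobulin lambda-like polypeptide 1-like for LOC102176353 and immunoglobulin J chain for IGJ. The RefSeq gene table of assembly ARS1.2 lists LOC102185492 as a C region and LOC102176353 as a V segment, and it holds IGJ under the symbol JCHAIN. No unigene of LOC102185492 came close to its protein. Their identities were 33% for c11432_g1, 37% for c23384_g1, 38% for c6206_g1 and 44% for c25461_g1. For LOC102176353 the identity was 93% for c5630_g1, 70% for c27276_g1 and 32% for c36349_g1, and the IGJ unigenes c6076_g1 and c25702_g1 matched at 100% and 94%. Over all 21220 paired unigenes the median identity was 100%, and 1.54% of them were under 50%, compared with 5 of the 9 members.

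The best protein match of each member was therefore read from the annotation table. It is the sheep gamma-1 heavy chain for c11432_g1, the goat mu heavy chain for c23384_g1, a bovine kappa light chain for c25461_g1 and a sheep T cell receptor beta chain for c6206_g1, all 4 under the name LOC102185492. Under the name LOC102176353, c5630_g1 matches a goat lambda light chain, c27276_g1 a lambda variable region and c36349_g1 a yak alpha heavy chain. The 3 heavy chain unigenes held 48.6% of the 461 member counts over the 4 libraries, and the 5 light and joining chain unigenes held 47.3%. The 5 unigenes under 50% identity held 53.6%. Members are therefore named below by unigene and by the chain they match. None of the 9 shared a run of 25 bases with any other unigene of the assembly, on either strand.

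The sequences below show which constant domains the main unigenes carry. Each was read from the assembled unigene in its open frame, and the capitals mark the 7 codons of the immunoglobulin and MHC signature, a short protein motif around a conserved cysteine of constant domains. All reading frames on both strands were searched, and 0.855% of the 59774 unigenes hold this motif, compared with 4 of the 9 members.
c5630_g1, lambda light chain: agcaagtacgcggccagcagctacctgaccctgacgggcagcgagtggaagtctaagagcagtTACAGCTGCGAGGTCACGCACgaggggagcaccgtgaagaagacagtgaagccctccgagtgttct
c11432_g1, gamma heavy chain, first signature: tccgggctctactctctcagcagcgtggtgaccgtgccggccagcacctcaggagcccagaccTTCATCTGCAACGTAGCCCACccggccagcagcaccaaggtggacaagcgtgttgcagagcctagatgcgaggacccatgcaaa
c11432_g1, gamma heavy chain, second signature: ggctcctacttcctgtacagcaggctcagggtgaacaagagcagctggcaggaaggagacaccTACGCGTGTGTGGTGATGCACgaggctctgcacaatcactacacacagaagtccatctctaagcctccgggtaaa
c23384_g1, mu heavy chain, first signature: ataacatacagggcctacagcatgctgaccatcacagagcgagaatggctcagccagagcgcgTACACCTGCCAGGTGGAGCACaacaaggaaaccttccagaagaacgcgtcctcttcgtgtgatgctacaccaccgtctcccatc
c36349_g1, alpha heavy chain: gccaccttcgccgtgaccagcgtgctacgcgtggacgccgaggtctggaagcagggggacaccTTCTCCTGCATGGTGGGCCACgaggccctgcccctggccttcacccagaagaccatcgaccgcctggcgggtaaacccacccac
The lambda stretch ends at the last codon before its stop. Aligned on the signature without gaps, the encoded residues of the lambda stretch and the first gamma stretch were identical at 8 of 43 positions (18.6%), and those of the second gamma stretch and the alpha stretch at 20 of 46 (43.5%). Between domains of 1 chain it was 7 of 46 (15.2%) for both gamma stretches and 22.4% to 26.5% among the 3 signatures of the mu unigene. These values lie on both sides of the 18.6% and under the 43.5%. This identity therefore does not tell chains apart, and the chain names rest on the best protein match. The coding sequence deposited for c5630_g1 lies on the strand opposite to this lambda reading, and the library kit does not mark strand. The motif was not found in c25461_g1, c27276_g1, c6206_g1 or the IGJ unigenes, which says only that these letters are not in the assembled stretch.

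The 2 IGJ unigenes are pieces of 1 coding sequence. They share 24 bases exactly, shown in capitals, after c25702_g1 is read on its opposite strand.
c25702_g1, opposite strand: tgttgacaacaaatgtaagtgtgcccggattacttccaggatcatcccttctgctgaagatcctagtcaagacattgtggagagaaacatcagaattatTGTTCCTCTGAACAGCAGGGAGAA
c6076_g1: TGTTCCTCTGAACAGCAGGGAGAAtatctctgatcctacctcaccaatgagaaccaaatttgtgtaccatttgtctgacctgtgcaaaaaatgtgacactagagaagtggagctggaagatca
The reading frame of the first line runs into that of the second across the shared bases. The closest nucleotide match of c25702_g1 is described as bovine UTP3, a different gene, so its counts are less certain as IGJ counts than those of c6076_g1.

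The libraries differed in depth and in what the counts came from. The expected count, the deposited estimate of fragments per unigene, summed to 6675218 to 8533046 per library. Mitochondrial, ribosomal and Escherichia coli or Shigella unigenes held many counts of the treated libraries, and the counts outside them, called remaining counts, made up 75.2%, 54.6%, 2.40% and 42.7%. T2 stood apart, with 89.4% of its counts in mitochondrial unigenes. Each comparison was therefore made per all counts and per remaining counts. A ratio is the share of counts in a treated library over the share in the control library, with a 95% exact Clopper-Pearson interval that covers counting error only. With 1 control library no test between conditions could be made, and no difference has a replicate check within these libraries. The study also measured its LOC102185492 target by qRT-PCR in treated and control goats. It reported significantly higher levels in the treated goats at each sequenced time point. Those values were not compared with the ratios here. A library with 3 counts or fewer was taken as at or under the floor, which is 0.352 CPM (counts scaled to the library total) of all counts in the control library and 17.1 CPM of remaining counts in T2.

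The gamma heavy chain unigene c11432_g1 had 0, 172, 11 and 14 counts. It was the most abundant member, and all 3 treated libraries lay above the control. Against the floor of 3 counts in the control library it was at least 61.4-fold higher in T1, 4.26-fold in T2 and 5.97-fold in T3 per all counts. Per remaining counts these bounds were 84.6, 134 and 10.5. The exact lower limits of the ratio, which take the counting error of both libraries, were 49.4, 2.92 and 4.24 per all counts. Of 10392 unigenes without a count in the control library, c11432_g1 alone had 172 counts or more in T1, 20 had 11 or more in T2 and 5 had 14 or more in T3, c11432_g1 included. It belongs to the gene picked for its fold in these libraries, so this rank is a description.

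The lambda light chain unigene c5630_g1, which holds the primer sites, had 2, 134, 2 and 9 counts. T1 stood far above the other 3 libraries, and T2 held as few counts as the control. The ratio to the control library was 71.8 (19.5 to 599) in T1 and 5.75 (1.19 to 54.7) in T3 per all counts, and 98.8 (26.8 to 824) and 10.1 (2.10 to 96.3) per remaining counts. The intervals are wide because the control library held 2 counts. No fold is given for T2, where both libraries were under the floor, although 2 counts are a larger share of the few remaining counts of T2. Per length, c5630_g1 was the higher of the 2 leading unigenes in T1, with an FPKM of 53.9 and 20.2 for c11432_g1, and the lower in T2, with 0.910 and 1.42.

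**Figure D1:**
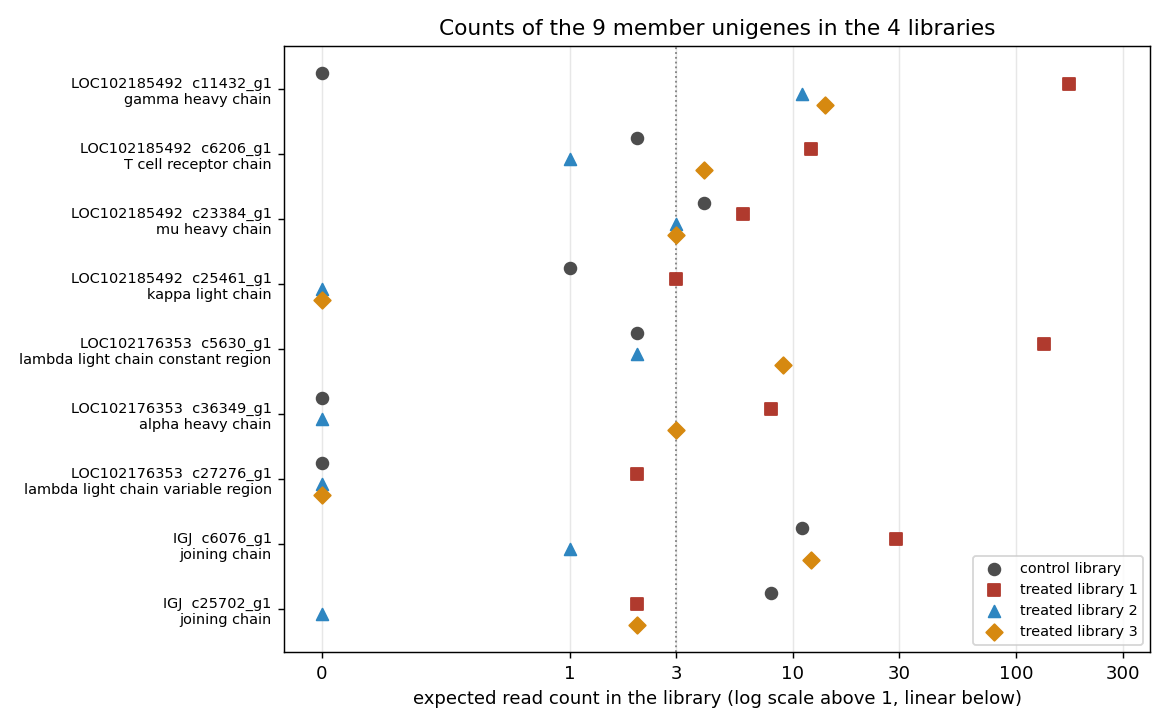
Expected read counts of the 9 member unigenes (rows) in the control library and T1, T2 and T3 (symbols), on an axis that is logarithmic above 1, with the floor of 3 counts dotted. The gamma heavy chain (172 counts) and the lambda light chain (134 counts) of T1 lie far to the right of all other points, and most other points are at or below 14 counts.

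The other light chain members were hardly counted. The kappa unigene c25461_g1 had 1, 3, 0 and 0 counts. As it is 281 bases long, 1 count in the control library already gave an FPKM of 1.30. The lambda variable unigene c27276_g1 had 2 counts in T1 and 0 elsewhere. For both, all 4 libraries were at or under the floor and no difference was detectable at this depth.

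The other heavy chain members did not follow the gamma chain in size. The mu unigene c23384_g1, part of IgM, had 4, 6, 3 and 3 counts, and its ratio per all counts was 1.61 (0.381 to 7.74), 0.872 (0.128 to 5.15) and 0.959 (0.140 to 5.67). These intervals hold 1, but per remaining counts the ratio in T2 was 27.4 (4.01 to 162). That value rests on 3 counts in T2, which is at the floor. The alpha unigene c36349_g1, part of IgA, had 0, 8, 0 and 3 counts, and was at least 2.86-fold higher in T1 per all counts and 3.93-fold per remaining counts. The T cell receptor unigene c6206_g1, which belongs to T cells and is no antibody chain, had 2, 12, 1 and 4 counts. Its ratio per all counts was 6.43 (1.43 to 59.2) in T1 and 2.56 (0.366 to 28.3) in T3.

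The joining chain behaved differently from the gamma and lambda unigenes. The longer unigene c6076_g1 had 11, 29, 1 and 12 counts. Its ratio per all counts was 2.83 (1.37 to 6.27), 0.106 (0.00246 to 0.727) and 1.39 (0.563 to 3.49). Per remaining counts the ratios were 3.89 (1.89 to 8.63), 3.32 (0.0771 to 22.8) and 2.45 (0.991 to 6.14), so the low value of T2 turned to the other side of 1 with an interval that holds 1. The second piece, c25702_g1, had 8, 2, 0 and 2 counts, the only member with its highest count in the control. Its ratio in T1 was 0.268 (0.0277 to 1.34) per all counts. The leading piece held 57.9% of the IGJ counts in the control library and 93.5% in T1.

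By gene name, the counts of LOC102185492 were 7, 193, 15 and 21. Most of them came from the gamma heavy chain in each treated library, with 89.1%, 73.3% and 66.7%, and none did in the control library. Its ratio per all counts was 29.5 (14.1 to 74.5), 2.49 (0.956 to 7.22) and 3.83 (1.57 to 10.7), so the interval of T2 holds 1 on this scale. Per remaining counts the ratio was 40.7 (19.4 to 102), 78.2 (30.02 to 227) and 6.75 (2.76 to 18.8). LOC102176353 had 2, 144, 2 and 12 counts, of which the lambda unigene held 93.1%, 100% and 75% in the treated libraries. Its ratio per all counts was 77.2 (21.0 to 643) in T1 and 7.67 (1.71 to 70.6) in T3. IGJ had 19, 31, 1 and 14 counts, and its ratio per all counts was 1.75 (0.957 to 3.28), 0.0612 (0.00147 to 0.385) and 0.942 (0.437 to 1.98). Per remaining counts these IGJ ratios were 2.41 (1.32 to 4.51), 1.92 (0.0462 to 12.1) and 1.66 (0.769 to 3.49), so the direction in T2 and T3 depended on the scaling.

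In order of level, in CPM of all counts, the sum of the 3 genes was 46.2 in T1 (95% Wilson interval 41.7 to 51.2), 7.04 in T3 (5.30 to 9.36), 3.28 in the control library (2.27 to 4.74) and 2.45 in T2 (1.55 to 3.88). Per all counts the ratio of T1 to the control library was 14.1 (9.58 to 21.5), and 7.502 without c11432_g1. That of T3 was 2.15 (1.32 to 3.56), and 1.51 without c11432_g1. T2 and the control library did not differ beyond counting error, with a ratio of 0.747 (0.389 to 1.40). On the scale of remaining counts the order was different, with 102 CPM in T2, 84.6 in T1, 16.5 in T3 and 4.36 in the control library. T1 and T2 did not differ beyond counting error on this scale (ratio 0.826, interval 0.515 to 1.41), and both lay above T3. Among all unigenes with a count, the interval lay above 1 for 34.2% in T1 over T2, 12.4% in T1 over T3 and 34.7% in T3 over T2 per all counts, and for 2.91%, 8.02% and 3.02% per remaining counts. The control library was lowest per remaining counts, and the ratio of T1, T2 and T3 to it was 19.4 (13.2 to 29.6), 23.5 (12.2 to 43.9) and 3.78 (2.32 to 6.26). The value of T2 rests on 18 counts.

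**Figure D2:**
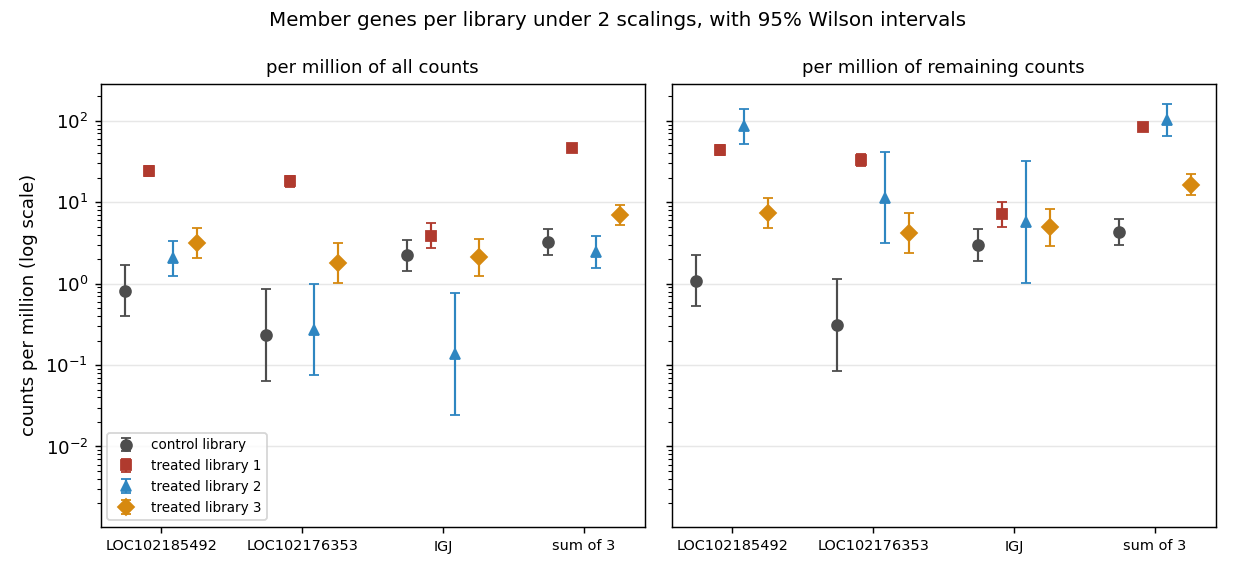
CPM (counts scaled to the library total, log axis) of the 3 member genes and their sum in each library, per all counts on the left and per remaining counts on the right, with 95% Wilson intervals for counting error. The sum in T2 lies at 2.45 on the left, beside the control at 3.28, and at 102 on the right, beside T1 at 84.6.

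The members were set against all unigenes with the limits of the study, an x-fold above 3 or below 0.6. The x-fold is the FPKM in a treated library plus 0.1 over the FPKM in the control library plus 0.1, taken where the mean FPKM was 1 or more. Of the 9 members, 6 reached this level. In T1, 3 of the 6 were above 3 (c11432_g1, c5630_g1 and c6206_g1), where 15.3% of all 27409 unigenes were, and 1 was below 0.6 (c25702_g1), where 46.3% were. In T2, 1 was above 3 (c11432_g1), compared with 2.11% of all, and 3 were below 0.6 (c25461_g1, c25702_g1 and c6076_g1), compared with 85.3%. In T3, 2 were above 3 (c11432_g1 and c5630_g1) and 2 below 0.6 (c25461_g1 and c25702_g1), compared with 7.79% and 57.9%. Both c11432_g1 and c5630_g1 had a higher FPKM in every treated library than in the control library, as did 1.19% of all unigenes, although the FPKM of c5630_g1 was 0.910 in T2 and 0.770 in the control library, from 2 counts each. The median x-fold of all these unigenes was 0.699, 0.0370 and 0.454 in T1, T2 and T3.

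By the exact interval of the ratio, 5 of the 9 members were above the control library in T1 per all counts, where 5.66% of all unigenes with a count were, and the same number per remaining counts, where 9.09% were. In T3, 2 members were above on both scales, compared with 1.26% and 4.52% of all, and none was below, compared with 19.7% and 9.79%. None was below in T1 either, compared with 16.5% and 11.1%. In T2, 1 member was above and 2 were below per all counts (0.233% and 34.5% of all), and 3 were above and none below per remaining counts (3.29% and 3.5% of all), among them c5630_g1, which had 2 counts in both libraries. Since LOC102185492 was chosen from these contrasts, nothing is read from these counts about the members as a set.

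Over gene names, FPKM times length was added up over unigenes, which gives the level of a gene. On this scale the x-fold of LOC102176353 was 60.1, 1.14 and 6.02 in T1, T2 and T3, and that of IGJ was 1.55, 0.0826 and 0.868. That of LOC102185492 was 22.03, 1.91 and 2.93, just under the limit of 3 in T3. Of 8718 goat genes, 2.53%, 0.0918% and 0.757% were above 3, and 58.1%, 99% and 73.3% were below 0.6. Of the 3 member genes, IGJ in T2 was below 0.6.

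All antibody chain unigenes were then counted, whatever their gene name. There were 15 by the best protein match, 8 members and 7 others, and they held 26, 373, 20 and 47 counts. The 7 others were thinly counted, the highest being the kappa constant region c45887_g1 and the lambda variable region c11365_g1 with 6 counts each in T1. The make-up of these counts within a library does not depend on the library total. The joining chain held 73.1% of them in the control library (95% Wilson interval 53.9 to 86.3), 8.31% (5.92 to 11.6) in T1, 5% (0.888 to 23.6) in T2 and 29.8% (18.7 to 44.0) in T3. IGJ itself had more counts in T1 (31) than in the control library (19), so its smaller share there goes with the larger gamma and lambda counts. Without c25702_g1, the less certain piece, the shares were 61.1% (38.6 to 79.7), 7.82% (5.50 to 11.001), 5% (0.888 to 23.6) and 26.7% (16.0 to 41.0), and the intervals of the control library and T3 overlapped.

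Heavy chains held 15.4% (6.15 to 33.5) of the antibody chain counts in the control, 51.2% (46.1 to 56.2) in T1, 80% (58.4 to 91.9) in T2 and 48.9% (35.3 to 62.8) in T3. The gamma chain, which defines IgG, held 46.1% (41.1 to 51.2) in T1, 55% (34.2 to 74.2) in T2 and 29.8% (18.7 to 44.0) in T3, and 0 of 26 counts in the control, which allows a share of up to 11.5% by the floor of 3 counts (Wilson upper limit 12.9%). Among heavy chain constant regions in T1, 172 of 187 counts were gamma (92.0%, interval 87.2 to 95.1). Among light chains, 142 of 151 counts in T1 were lambda (94.0%, interval 89.1 to 96.8), and over all libraries 157 of 167 were. The control library held 3 light chain and 4 heavy chain counts, too few to split by class.

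**Figure D3:**
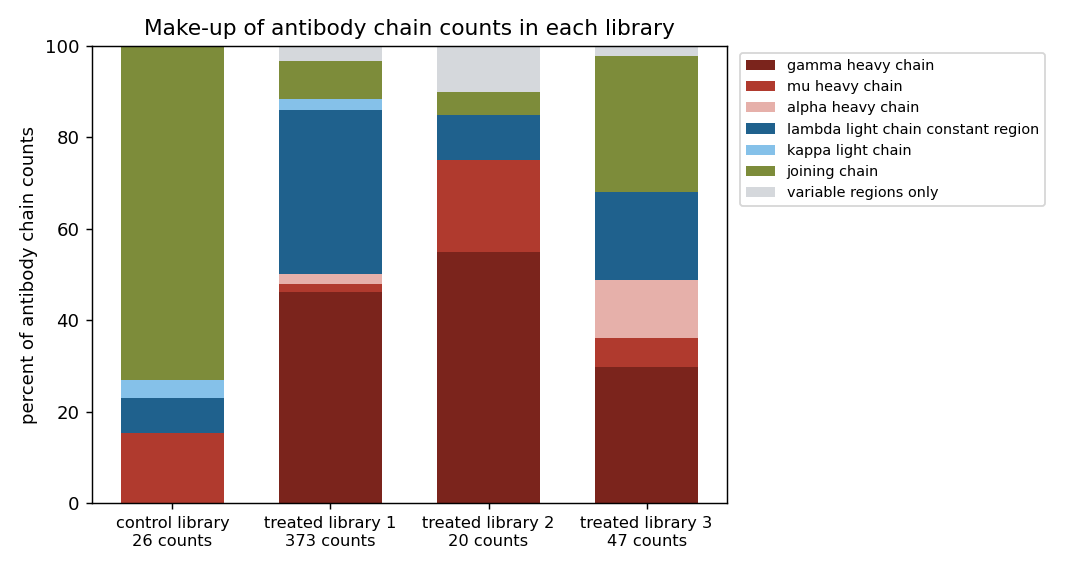
Percent of antibody chain counts (vertical axis) by chain in each library, with the number of counts under each bar. The joining chain fills 73.1% of the 26 counts of the control library, and the gamma heavy chain and the lambda constant region fill most of the 373 counts of T1, while the bar of T2 rests on 20 counts.

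Another 8 unigenes match an immunoglobulin locus by nucleotide sequence only, with no protein match. They held 27, 30, 3 and 36 counts. Without c10937_g1, which had 19, 0, 0 and 23 counts, the sums were 8, 30, 3 and 13. These unigenes were not counted as antibody chains.

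Most markers of the cells that make antibodies could not be looked up by name. Of 24 B and plasma cell genes, 3 were paired with a unigene, BANK1, CD38 and FKBP11. The defining markers CD79A, CD79B and MS4A1 of B cells and PRDM1, MZB1, POU2AF1, SDC1 and TNFRSF17 of plasma cells had no unigene under their name in the goat table or among the Swiss-Prot gene names. The same held for MYH1 of the muscle fibre list and HBB of the red blood cell list, so a missing name does not show that a gene was not expressed. CD38, an ectoenzyme high on plasma cells, had 0, 2, 0 and 1 counts. FKBP11, a folding enzyme of the secretory pathway, had 3, 17, 1 and 8 counts. The 3 paired genes summed to 3, 20, 1 and 10 counts, with a ratio per all counts of 7.14 (2.12 to 37.5) in T1. Another 2 genes of the list were found through their Swiss-Prot names and hold most of its counts. XBP1, a transcription factor of the unfolded protein response that plasma cells need and other cells use as well, had 130, 109, 5 and 61 counts, and SEC11C, a subunit of the signal peptidase, had 131, 81, 5 and 76. With both included, the ratio of the list in T1 was 0.852 (0.708 to 1.03) per all counts and 1.17 (0.974 to 1.41) per remaining counts, in place of 9.83 (2.92 to 51.7) without them, so the list gave no stable direction. Of T cell genes, 3 of 12 were paired, with 0 to 6 summed counts per library.

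The secretory pathway and unfolded protein response genes, which fold and export antibodies in plasma cells and other proteins in every cell, had counts enough to compare. Of 20 genes, 19 were paired and 17 reached a mean level of 1 on that scale. In T1, 1 of these 17 was above 3, CRELD2 with 4, 13, 1 and 4 counts, and 5 were below 0.6, and their median log2 x-fold was -0.21, compared with -0.95 over all goat genes. In T2 and T3 none was above 3, 17 and 12 were below 0.6, and the medians were -4.07 and -0.89, compared with -5.31 and -1.30. The chaperones HSPA5 and HSP90B1 had ratios per all counts of 1.43 and 1.51 in T1 and 0.582 and 0.597 in T3. Per remaining counts their ratios were 1.96 and 2.08 in T1. In T3 they were 1.02 (0.830 to 1.26) and 1.05 (0.881 to 1.25), so the lower values of T3 depended on the scaling. DNAJB9, a co-chaperone of HSPA5, had 115, 311, 2 and 33 counts, and MANF, a secreted stress-response protein, 28, 73, 0 and 16. ERN1 and ATF6, of the same list, went the other way in T1, with 23, 1, 0 and 0 counts and 10, 0, 0 and 0 counts. CANX, a lectin chaperone of the endoplasmic reticulum, had ratios per all counts of 0.582 in T1 and 0.443 in T3. Per remaining counts these were 0.801 and 0.780.

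Of 10 genes for receptors that bind or carry antibodies, 5 were paired and 1 more, B2M, was found through its Swiss-Prot name. FCGRT held 871 of the 889 counts of the 5 paired genes in the control library and 75 of 99 in T1. The ratio of their sum per remaining counts was 0.164 (0.132 to 0.202), 0.821 (0.499 to 1.28) and 0.463 (0.393 to 0.543). B2M, the light subunit of the neonatal Fc receptor and of MHC class I, had 3649, 9302, 209 and 2650 counts, and with it the ratios turned to 3.06 (2.95 to 3.17), 1.84 (1.61 to 2.104) and 1.404 (1.34 to 1.47). FCGRT, the heavy subunit of the neonatal Fc receptor that protects IgG from breakdown, had 871, 75, 18 and 171 counts, and its ratio per remaining counts was 0.127 (0.0989 to 0.161) in T1. FCER1G, the shared signalling chain of Fc receptors, had 5, 15, 1 and 4 counts. PIGR, which carries polymeric IgA and IgM across epithelia, had 2 counts, both in T1.

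Per all counts, the summed markers of myeloid cells and antigen presentation were also highest in T1. Of 16 myeloid genes, 8 were paired, 5 reached a mean level of 1 on that scale, and 4 of these 5 (AIF1, C1QA, C1QB and C1QC) were above 3 in T1, where 2.53% of goat genes were. C1QA, C1QB and C1QC, the subunits of complement C1q made by macrophages, were read mostly in T1. Their counts were 0, 18, 0 and 3 for C1QA, 4, 38, 2 and 4 for C1QB, and 2, 17, 3 and 7 for C1QC. The myeloid sum ranged from 0.817 to 13.1 CPM of all counts, with a ratio of 5.57 (3.43 to 9.498) in T1. The defining marker CD14 was at 0 in all 3 treated libraries and at 3 counts in the control library. CD68 had 7, 18, 0 and 3 counts. CD163, found through its Swiss-Prot name and not in the sum, had 0, 12, 0 and 0. CD74, the invariant chain of MHC class II, had 98, 538, 57 and 109 counts. Their part in the antibody chain counts was not tested.

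Per remaining counts, the myeloid sum was 7.67 (4.72 to 13.1), 10.9 (3.60 to 28.3) and 2.47 (1.29 to 4.78) times the control library in T1, T2 and T3, and the antigen presentation sum was 4.54 (3.90 to 5.30), 10.2 (7.602 to 13.6) and 1.83 (1.497 to 2.23) times. CD74 held 538 of the 692 counts of the antigen presentation sum in T1 and 57 of 63 in T2. TAP1, of the same list, had 120, 137, 5 and 70 counts, at 1.68 (1.31 to 2.17), 1.52 (0.485 to 3.65) and 1.31 (0.963 to 1.78) times. CTSS had 6, 17, 1 and 3 counts, and CD40 had 1, 0, 0 and 1. The endothelial and fibroblast sum, which reflects vessels and connective tissue, was 0.845 (0.792 to 0.902), 5.802 (5.21 to 6.44) and 1.58 (1.48 to 1.68) times. Of its paired genes in T2, the matrix genes COL1A1, at 44.3 times, and DCN, at 18.2 times, were highest. The matrix gene LUM was at 4.52 times. The vessel genes TEK, CDH5, PECAM1, VWF and KDR were at 6.78, 3.25, 2.77, 1.65 and 0.593 times. COL3A1 and COL1A2, found through their Swiss-Prot names, are not in the sum. Their counts were 144, 136, 310 and 137 for COL3A1 and 123, 96, 146 and 83 for COL1A2. The skeletal muscle fibre sum was between 0.836 and 1.47 times, with CKM, the muscle creatine kinase, at 310668 of its 724729 counts in the control library. It leaves out 4 genes of the list found through Swiss-Prot names, TTN, MYH7, TNNC2 and TNNI2. These held 414480, 453406, 7426 and 264913 counts. The paired genes went apart, with NEB, the giant thin filament protein, at 0.0539 times in T2 and MYL1, a myosin light chain, at 3.41 times in T3. The red blood cell genes, of which 2 of 9 were paired, held 2 to 27 counts per library and none of the paired names was a globin, so the blood content of the samples was not measured this way.

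**Figure D4:**
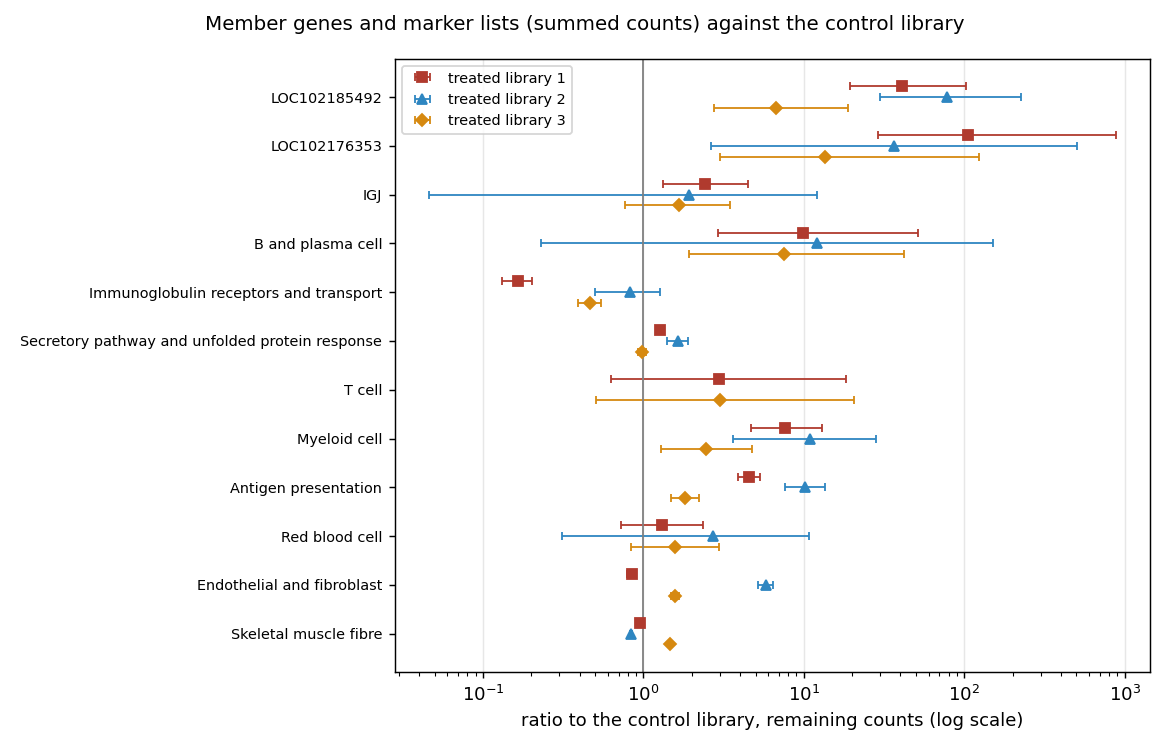
Ratio to the control library per remaining counts (log axis) for the 3 member genes and for the summed counts of each marker list (genes paired in the goat table), with 95% exact intervals for counting error, in T1, T2 and T3. LOC102185492 (40.7, 78.2 and 6.75) lies to the right of the muscle fibre list, which lies between 0.836 and 1.47, and the T cell list of T2 had no counts and is not drawn.

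The genes whose pattern over the treated libraries was most like that of the summed members were found among 7182 goat genes with 50 or more counts, by the Euclidean distance of their log2 x-folds from those of the sum, which were 3.72, -0.60 and 0.97 in T1, T2 and T3. The nearest was TPM4, a tropomyosin gene whose unigenes are paired with a protein described as tropomyosin alpha-1 chain, at a distance of 0.860, with log2 x-folds of 3.63, -1.04 and 1.70. CD74 was next at 1.27, followed at 1.31 by LOC100860813, described as an MHC class II DQ alpha chain and thus a partner of CD74 in antigen presentation. S100A11, a calcium-binding protein, was at 1.36, and DLL1, a ligand of Notch receptors, at 1.38. The median distance over all 7182 genes was 7.18. The likeness is over 3 libraries that share 1 control library, and DLL1 had 3 counts in the control library and LOC100860813 had 6.

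**Figure D5:**
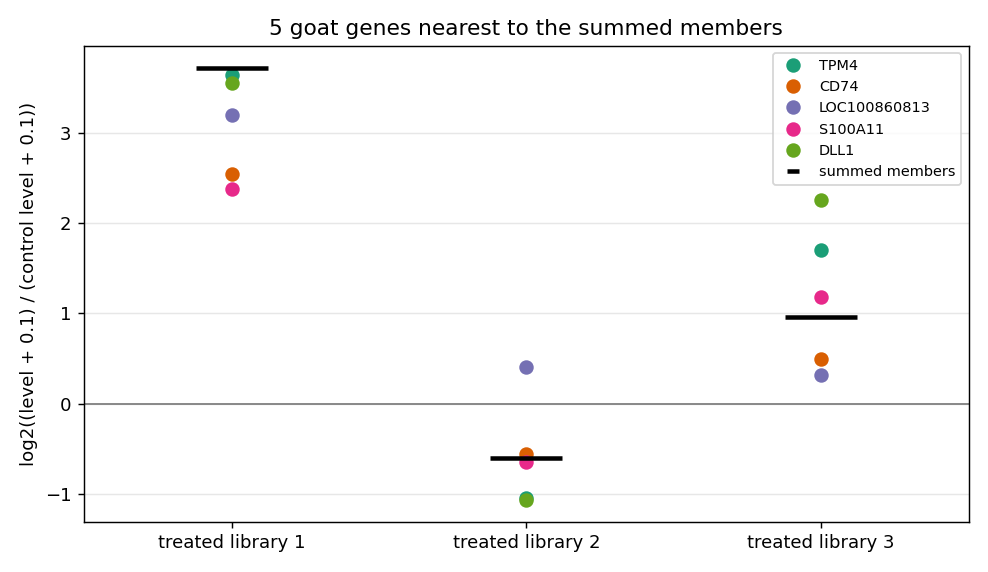
Log2 x-fold (vertical axis, level plus 0.1 over control level plus 0.1) in each treated library for the summed members (black bars) and the 5 nearest goat genes (points). All 5 points lie above 2 in T1 and within 2 log2 units of the bar in every library, with the widest spread in T3.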

How the data were processed

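RNA-seq of 4 goat longissimus muscle libraries was analysed, 1 control and 3 treated. The authors assembled the reads into unigenes and deposited, per library, expected counts (whole numbers in these files, from 6675218 to 8533046 per library), TPM and FPKM of unigenes and transcripts. The percent identity of each unigene to a goat protein and the percent of each transcript within its unigene were also deposited. Per the labels, FastQC 0.10.1 was used, and the assembler and counting tool are not given in the sources used here.

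Expected counts were used for ratios of shares and FPKM for x-folds, and TPM entered no comparison. Mitochondrial (39), ribosomal (41) and bacterial (174, Escherichia coli or Shigella) unigenes were recognised by the wording of their best nucleotide match, and chains by that of the best protein match, with wording set after the annotation was seen. The members and lists were chosen with earlier results of these data known. The genes named are the members, all antibody chain unigenes by class, the list genes and the 5 nearest genes. Expected counts were compared without a test because there is 1 control library. Where the control library had 1 to 3 counts, the ratio is given with its interval instead of a bound from the floor. Alternatives were other scalings, pseudocounts, filters and the transcript table. Deposited tables that bin unigenes by FPKM were left out. Calculations were run in Python 3.11.15 with Biopython 1.88, pandas 2.3.3, scipy 1.17.1 and numpy 2.4.6, and plots drawn with matplotlib 3.10.9.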

Additional observations from a re-analysis of the deposited data

How the results depend on the processing

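The summed counts of the 3 genes depended most on the scaling in T2, where the ratio to the control library was 0.747 per all counts, 23.5 per remaining counts and 20.2 with the median unigene set to 1. In T3 the ratio of 2.15 became 3.78 and 4.73 under the same 2 scalings. With unigenes of at least 50% identity only, it was 8.52 in T1 and 0.166 in T2. With all unigenes described as a light or joining chain it was 8.87 and 0.211, without the most abundant unigene 7.502 and 0.291, and with only the light and joining chain members, an alternative chosen after seeing the data, 8.28 and 0.159. In T3 the same alternatives gave 1.40, 1.39, 1.51 and 1.34, in this order. For all light or joining chain unigenes the exact interval in T3 was 0.749 to 2.61, which holds 1. T1 stayed above the control under all 10 alternatives that kept every library. Leaving out each treated library in turn gave a lowest ratio from 0.747 to 2.15, a median from 1.45 to 8.12 and a highest from 2.15 to 14.1. IGJ in T2 turned from 0.0612 to 1.92 per remaining counts and 1.65 with the median scaling. The cause was not tested.

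The number of unigenes above 3 and below 0.6 in T1 was 9472 and 30726 with no minimum FPKM and 372 and 1984 with a minimum of 5. In T2 these were 984 and 48142, and 44 and 4544, and in T3, 4400 and 35920, and 78 and 2795. More or fewer unigenes enter by construction. With the median scaling they were 6315 and 7022 in T2, in place of 577 and 23375, and 3610 and 9829 in T3, in place of 2134 and 15868.

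With FPKM times length, the heavy chain share in T1 was 45.2%. Among chains of at least 50% identity the heavy chain share was 0% in the control library, 2.26% in T1, 20% in T2 and 0% in T3, and the joining chain share was 90.5%, 17.5% and 58.3% in the control library and T1 and T3, since all 3 heavy chain members fall under that limit and 3 other heavy chain unigenes have no identity value. For LOC102185492 this limit leaves no unigene. With genes found by Swiss-Prot name, chosen after seeing the data, the B and plasma cell list turned to 0.852 in T1 and 0.712 in T3 per all counts, and the receptor list to 2.22 in T1 per all counts and to 3.06, 1.84 and 1.404 in T1, T2 and T3 per remaining counts. Leaving out c25702_g1, also chosen then, kept each joining chain share within its interval. No paired analysis was possible because there is 1 control library and the comparison has no replicate numbers in common beyond it. Depth limits T2, with 175790 remaining counts.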

Other observations

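Unigenes whose best nucleotide match names Sarcocystis, a protozoan parasite that forms cysts in muscle, were counted mainly in 2 of the libraries. The 9 such unigenes held 4, 172, 137 and 1 counts (control, T1, T2, T3), with all 9 above 0 in T1 and 5 in T2. Their ratio to the control library per all counts was 46.1 (95% exact interval 17.7 to 171) in T1 and 39.8 (15.2 to 148) in T2. T1 and T2 were also the libraries with the most member counts per remaining counts, where the value of T2 rests on 18 counts. Per all counts T2 had the lowest member level, at 2.45 CPM, with 3.28 in the control library. The part of the Sarcocystis counts in these differences was not tested.

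The 26 unigenes whose best match is rabbit mitochondrial sequence held 3, 4, 392 and 1 counts in the same order.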
